A study of Mus musculus with 2 samples.

Results

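The 7 selenoproteins of the endoplasmic reticulum (ER) and the secretory route, Selenof, Selenom, Selenos, Selenok, Selenon, Selenot and Selenop, were described in the postnatal mouse spinal cord. They were taken by name from a table of 51826 genes, and all 7 were found, with 27 of the 128622 listed transcripts. All 7 passed the filter on low values, a mean over both libraries of at least 1 CPM (counts per 1000000 counts of the library), which 15917 genes passed.

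C57BL/6 mice at postnatal day 7 gave whole spinal cord RNA, with 1 sequencing library made per genotype. One library was wild type (WT), with no engineered allele named in its labels. The other carried Olig1-Cre together with Secisbp2l floxed at exon 3 (cKO), where Olig1 control directs Cre recombinase to cells of the oligodendrocyte lineage, so whole-cord values pool targeted with untargeted cells. The labels give neither the number of animals behind a library nor a control that carries Cre alone, and without replicates no test was possible and no p-value is given.

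A selenoprotein contains selenocysteine, an amino acid encoded by UGA, which otherwise ends translation. The codon is read as selenocysteine when a hairpin in the 3′ untranslated region, the SECIS element, is bound by SECISBP2 and recruits a dedicated elongation factor with its tRNA; SECISBP2L, the targeted protein, is a relative of SECISBP2. Most ER selenoproteins use the residue in thiol redox chemistry tied to protein folding, to removal of misfolded proteins or to calcium stores, whereas SELENOP carries selenium between cells and is taken up in the nervous system through the receptor LRP8. A selenoprotein mRNA whose UGA is read as a stop can become a substrate of nonsense-mediated decay when an exon junction lies far enough downstream.

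The selenocysteine codons were read from the GENCODE M21 transcripts (GRCm38), because SECISBP2, a relative of the targeted protein, takes part in decoding them. Each run below is the sense strand, 5′ to 3′, of the transcript with the most counts among those annotated with the codon, which is shown in capitals; the runs of Selenos and Selenok end with the stop codon.
Selenof: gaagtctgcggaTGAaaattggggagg
Selenom: acctgtggaggaTGAcagttgaatcgc
Selenot: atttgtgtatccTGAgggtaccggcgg
Selenon: gaccagtcctgcTGAggttccgggcgg
Selenos: tcatctggcggcTGAaactaa
Selenok: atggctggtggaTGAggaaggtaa
Selenop, first codon: cttcaagccagcTGAtacttgtgtctt

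A cysteine codon, tgt or tgc, stood 2 codons before selenocysteine in Selenof, 3 codons before it in Selenom and Selenot, and directly before it in Selenon. None lay within the 4 codons before it in Selenos, Selenok or the first codon of Selenop. Codons after selenocysteine were not searched. The 4 members with such a cysteine codon are described together below, and Selenos and Selenok form a membrane-tail pair, in which the selenocysteine codon comes near the end of the reading frame. It is codon 189 of 190 in Selenos (chr7:66088844-66088846, plus strand, exon 6 of 6) and codon 92 of 94 in Selenok (chr14:29973440-29973442, plus strand, exon 4 of 5).

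In the 4 members with a preceding cysteine codon, selenocysteine lay further from the end. It was codon 93 of 162 in Selenof (chr3:144590645-144590647, plus strand, exon 3 of 5) and codon 48 of 145 in Selenom (chr11:3516273-3516275, plus strand, exon 2 of 5). Selenot had it at codon 49 of 195 (chr3:58585238-58585240, plus strand, exon 2 of 6), and Selenon at codon 428 of 557 (chr4:134542338-134542340, minus strand, exon 9 of 12).

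Selenop is the only member with more than 1 such codon, 10 in a frame of 380 codons (chromosome 15, plus strand). The first is codon 59 in exon 2 (chr15:3274848-3274850), 200 codons before the next, and the other 9 all lie in exon 5, the last exon. The last 4 are crowded into 39 bases at chr15:3279660-3279698, printed here with those codons in capitals because the selenium-rich tail is what makes the protein a carrier.
Selenop, codons 366, 368, 375 and 377: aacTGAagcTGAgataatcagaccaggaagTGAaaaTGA

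The distance from the first selenocysteine codon to the last exon junction also separated the members. It was 473 bases in Selenot, 360 in Selenop, 219 in Selenon, 138 in Selenom and 81 in Selenof, all above the 55 bases commonly taken as the distance at which a stop codon can trigger decay. In Selenok it was 8 bases, and in Selenos the codon lay 77 bases after the last junction. The map of the 7 mRNAs shows these distances to scale.

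**Figure D1:**
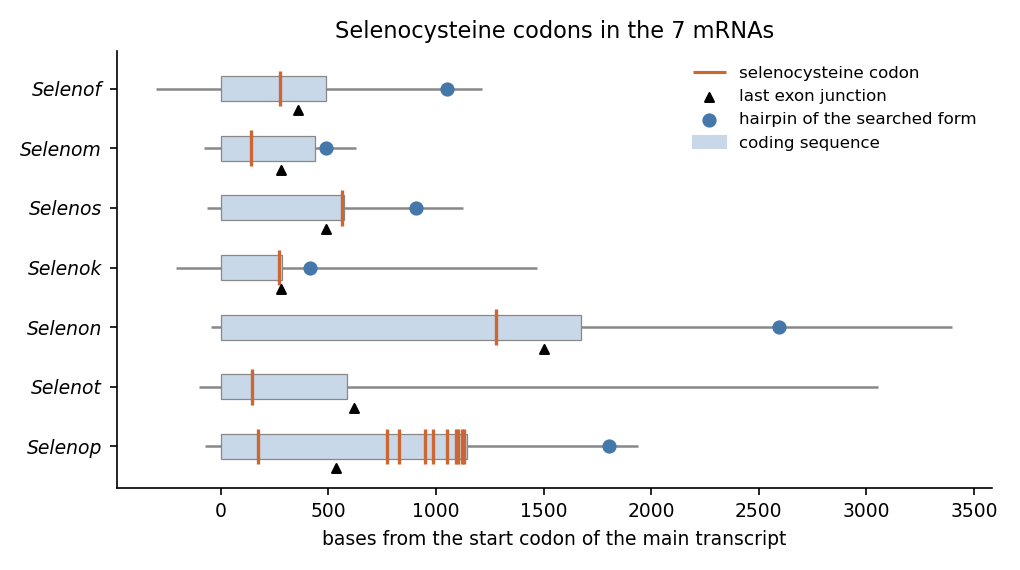
Main transcript of each member as a line, in bases from the start codon, with the coding sequence as a box, selenocysteine codons as vertical bars, the last exon junction as a triangle and the start of the hairpin of the searched form as a circle. The codon is near the end of the box in Selenos and Selenok, Selenop has 10 codons, and no hairpin of that form was found in Selenot.

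A hairpin of SECIS form was searched for in the 3′ untranslated regions of these transcripts, on the sense strand only. The form was ATGA or GTGA, then AA or CC after 8 to 13 bases, then TGA or CGA starting 34 to 48 bases after the first base, with at least 8 base pairs between the 13 bases that follow the first motif and the 13 that precede the last in the fold computed by RNAfold. The limits were set with the sequences of selenoproteins in view, and TGA can overlap ATGA or GTGA. Such a hairpin was present in 6 of the 7 members and in 14 of 17 other selenoproteins. Among 13893 other protein-coding genes with a 3′ untranslated region of 191 to 2468 bases, the range of the members, 8.77% held one. The first 24 bases of each are shown with the opening motif and the AA or CC in capitals, since the search required both.
Selenof, from base 565 of the region: ATGAggattacacagAAaaccttt
Selenos, from base 336: ATGAtgtcttccttatAAatggtg
Selenok, from base 133: ATGAggtcatgctgggAAttccct
Selenon, from base 919: ATGAtggctgggtctgAAatcgca
Selenop, from base 663: ATGAtggtttcatagagAAactaa
Selenom, from base 54: ATGAagcgctcagtatCCcgggag

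Selenom was the only member with CC in place of AA. No hairpin of this form was found in the 2468 bases of Selenot, which says only that these letters and pairs are not in that window.

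Estimated counts summed to 42875143 in WT and 55179026 in cKO, about 2 counts to a fragment. Secisbp2l itself stood at 588 and 466 CPM (WT, then cKO), so that its log2 ratio, always cKO over WT here, was -0.34, and whole-gene values do not check the deletion of exon 3. All 12 mature oligodendrocyte markers were lower by at least 1.5-fold, and their summed level in TPM (transcripts per 1000000 transcripts) was 11089 in WT and 6039 in cKO. Sums were 3744 and 3762 TPM for 9 astrocyte markers, 5669 and 6570 TPM for 12 neuron markers, and 291 and 289 TPM for 8 microglia markers. Xist had 35182 counts in WT and 13 in cKO, and 4 Y-linked genes had 0 counts in WT and 1081 to 4280 in cKO, so genotype and sex-linked expression cannot be told apart. In whole tissue, fewer cells of a type and less RNA per cell cannot be told apart either.

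Levels of different genes were compared on the authors' TPM, which accounts for transcript length. The order in WT was Selenop at 527 TPM, Selenof at 378, Selenom at 304, Selenot at 238, Selenok at 185, Selenos at 86.0 and Selenon at 24.7 TPM. Counting error (95%) ranged from 2.004% of the level for Selenop to 6.88% for Selenon, so neighbours in this order differed by more than their counting error. In cKO the order was Selenop at 487 TPM, Selenom at 324, Selenof at 313, Selenot at 219, Selenok at 174, Selenos at 71.2 and Selenon at 22.2 TPM. Selenom and Selenof thus changed places, and in cKO their levels were within counting error of each other (3.73% for Selenom and 2.64% for Selenof).

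Transcript levels of most of these genes were high for the tissue. By TPM in WT, Selenop stood at percentile 98.7 of the measured genes, Selenof at 98.1, Selenom at 97.5, Selenot at 96.6 and Selenok at 95.3. Selenos stood at percentile 87.2 and Selenon at 56.4. The 7 genes together made up 51.1% of all selenoprotein TPM in WT (1742 of 3409) and 48.2% in cKO (1611 of 3342), while the summed level of the other 17 selenoprotein genes was 1667 TPM in WT and 1731 in cKO. Only Selenow, a small cytosolic selenoprotein, was above Selenop in WT, with 799 TPM; in cKO Gpx4, which reduces lipid peroxides, was above it as well, at 493 TPM.

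**Figure D2:**
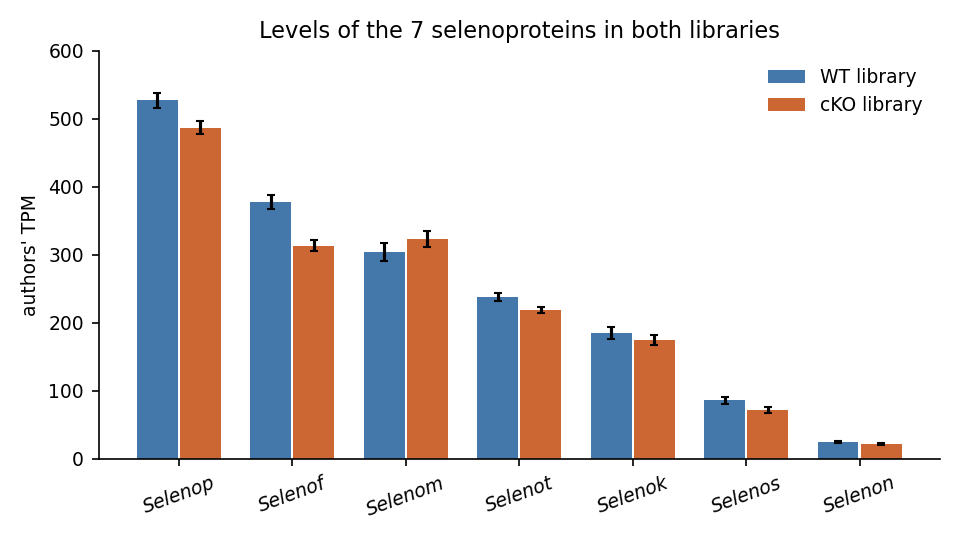
Level of each member in TPM in the WT and cKO libraries (bars, 1 library each), with error bars for 95% counting error. Selenop is highest at 527 and 487 TPM, Selenon lowest at 24.7 and 22.2, and Selenom is the only one with a taller cKO bar.

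Between the libraries the members differed little and mostly in 1 direction. None of the 7 was higher or lower by the rule of at least 1.5-fold with a 95% interval off a ratio of 1, which 2.46% of measured genes met as higher and 3.39% as lower. At 1.2-fold, 2 of 7 were lower, Selenof and Selenos, and 0 were higher, against 9.9% of measured genes lower and 8.47% higher. With upper quartile scaling Selenos, at -0.25, fell short of 1.2-fold and 1 member was lower. Intervals lay below a ratio of 1 for 6 of 7 members, all but Selenom. For any size of difference, 18.4% of measured genes had an interval below 1 and 21.9% above it. Because intervals narrow with depth, the 6066 genes whose mean CPM lay in the range of the members (35.3 to 420 CPM) were also counted, a background added after the values were seen. Of these, 23.7% had an interval below 1 and 35.2% above it, and 7.48% were lower and 7.15% higher at 1.2-fold. The median log2 ratio of the members was -0.17, against 0.01 over all measured genes (quartiles -0.14 and 0.15) and 0.03 over the genes in the same CPM range. These medians describe 2 libraries, with no test, and that of the members was -0.12 on the authors' TPM.

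Among the thiol oxidoreductases of the ER lumen, Selenof and Selenom differed from each other. Selenof (ENSMUSG00000037072, chr3:144570304-144597680, plus strand) encodes a partner of UGGT, the sensor that returns misfolded glycoproteins to calnexin. It had 10498 counts (245 CPM) in WT and 11010 counts (200 CPM) in cKO, giving a log2 ratio of -0.29 (95% interval -0.35 to -0.24). The level in cKO was 1.23-fold lower. Selenof had the lowest ratio of the 7.

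Selenom (ENSMUSG00000075702, chr11:3514684-3517351, plus strand) encodes a thioredoxin-like protein of the ER that is abundant in brain and linked to calcium handling. It had 4154 counts (96.8 CPM) in WT and 5535 counts (100 CPM) in cKO, giving a log2 ratio of 0.05 (95% interval -0.03 to 0.13). Its ratio did not leave 1 beyond counting error, and it was the only member above 0. The intervals of the other 6 all lay below that of Selenom, narrowly so for Selenok, whose upper bound was -0.04.

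Of the membrane-tail pair, both act with the AAA ATPase VCP (p97) in extracting proteins from the ER membrane for degradation. Selenos (ENSMUSG00000075701, chr7:66079649-66089405, plus strand), which tethers VCP to derlins, had 1826 counts (42.6 CPM) in WT and 1945 counts (35.3 CPM) in cKO. Its log2 ratio was -0.27 (interval -0.40 to -0.14), or 1.21-fold lower in cKO. On transcripts annotated as protein coding alone the log2 ratio was -0.15, short of 1.2-fold, so the call at that size rests on a transcript described below.

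Selenok (ENSMUSG00000042682, chr14:29968308-29975074, plus strand) is also the partner of the palmitoyltransferase ZDHHC6 that modifies the IP3 receptor. It had 3849 counts (89.7 CPM) in WT and 4540 counts (82.3 CPM) in cKO, giving a log2 ratio of -0.12 (95% interval -0.21 to -0.04). The difference was small, 1.09-fold. M21 lists 6 pseudogenes named after Selenok, and reads shared with them cannot be told apart in these values.

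Selenon and Selenot are tied to calcium release and to glycosylation. Selenon (ENSMUSG00000050989, chr4:134537892-134552166, minus strand) is an ER glycoprotein that regulates calcium pumps and channels and whose loss causes a congenital muscle disease. It had 1625 counts (37.9 CPM) in WT and 1809 counts (32.8 CPM) in cKO, giving a log2 ratio of -0.21 (95% interval -0.35 to -0.07). Its interval was the widest of the 7, since it had the fewest counts.

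Selenot (ENSMUSG00000075700, chr3:58576636-58593133, plus strand) is a thioredoxin-like membrane protein of the ER that has been found with the oligosaccharyltransferase. It had 14343 counts (334 CPM) in WT and 16574 counts (301 CPM) in cKO, giving a log2 ratio of -0.15 (95% interval -0.20 to -0.11). With many counts this 1.11-fold difference was beyond counting error. One pseudogene of Selenot is listed in M21.

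Selenop (ENSMUSG00000064373, chr15:3268547-3280508, plus strand), the secreted carrier, had 19122 counts (446 CPM) in WT and 21784 counts (395 CPM) in cKO. Its log2 ratio was -0.17 (interval -0.21 to -0.13), or 1.13-fold lower, and on the authors' TPM it was -0.11. In M21 its exons share 439 bases with Ccdc152 on the opposite strand. Ccdc152 had 15 counts in WT and 17 in cKO, but its deposited model (chr15:3280627-3303526) lies past the end of Selenop. Those counts therefore cannot show what opposite-strand reads from the shared bases add to Selenop.

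**Figure D3:**
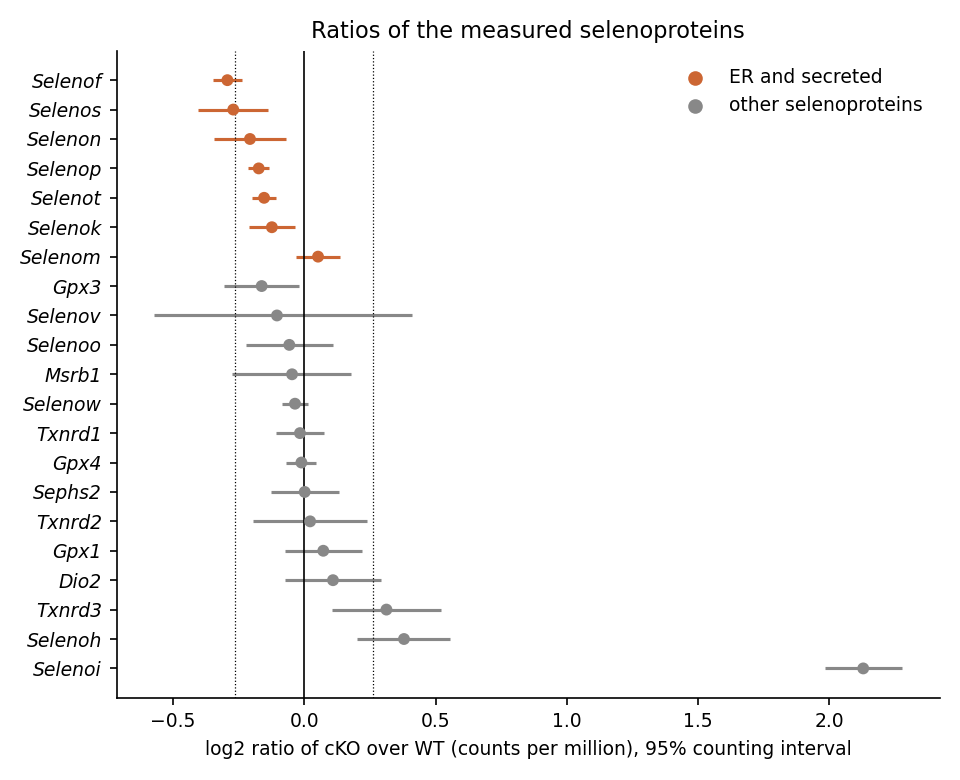
Log2 ratio of cKO over WT in CPM for the 7 ER and secreted selenoproteins (orange) and the 14 other measured selenoproteins (grey), with 95% counting intervals and dotted lines at 1.2-fold. The orange points run from -0.29 for Selenof to 0.05 for Selenom, and Selenoi stands apart at 2.13.

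Of the 17 other selenoprotein genes, which include membrane and secreted proteins, 14 were measured, with a median log2 ratio of -0.01, 7 of them below 0. At 1.2-fold, 0 were lower and 3 were higher: Selenoi, an enzyme of phosphatidylethanolamine synthesis (2.13), Selenoh, a nucleolar redox protein (0.38), and Txnrd3, a thioredoxin reductase (0.31). Gpx3, another secreted selenoprotein, had a log2 ratio of -0.16 (interval -0.31 to -0.02) and was the only one of the 14 with an interval below a ratio of 1. Dio2, a deiodinase of the ER membrane, had 0.11 (interval -0.07 to 0.29), and Selenoi is itself a membrane enzyme. A lower ratio was therefore not shared by all selenoproteins of ER membranes and the secretory route. The difference between the 2 sets of selenoproteins was not tested, as 1 library per group allows no test.

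The members' ratios can be set beside the place of the codon, and a link between them was not tested. The 5 members with the first selenocysteine codon more than 55 bases before the last junction had a median log2 ratio of -0.17 (range -0.29 to 0.05), and Selenos and Selenok, without such a junction, had -0.27 and -0.12. On transcripts annotated as protein coding alone, Selenos had -0.15. Across the 21 measured selenoproteins the medians were -0.08 for 12 with such a junction and 0.00 for 9 without. These pooled medians mix the 2 sets unequally, as 5 of the 12 but only 2 of the 9 are members. Among the other selenoproteins alone they were -0.04 for 7 with such a junction and 0.02 for 7 without. Among the members alone they were -0.17 and -0.20, the reverse order.

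Most members were represented by 1 transcript. Selenot-201, Selenon-201 and Selenok-201 each held at least 99.6% of the gene's counts in both libraries, Selenom-201 held 97.4% in WT and 97.6% in cKO, and Selenop-201 held 97.7% and 96.8%. These transcripts all carry the annotated selenocysteine codon. Only Selenof and Selenos had a second transcript with at least 5% of the counts.

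Selenof-202 lacks the 50-base exon 4 of Selenof-201 (chr3:144594901-144594950), which shifts the frame after selenocysteine and shortens the coding sequence from 162 to 121 codons. The exon, in capitals, is shown with 6 bases on either side because its inclusion sets the difference between the 2 coding sequences.
Selenof exon 4: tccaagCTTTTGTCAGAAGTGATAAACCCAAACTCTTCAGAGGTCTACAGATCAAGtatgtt

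The shorter form had 1465 counts in WT and 1233 in cKO, a log2 ratio of -0.61 (interval -0.77 to -0.45), and the full-length Selenof-201 had 8976 and 9711 counts, a log2 ratio of -0.25 (interval -0.31 to -0.19). As a share of the gene's counts, Selenof-202 took 13.96% in WT (13.03 to 14.9, Wilson) and 11.2% in cKO (10.4 to 12.05). Both forms were therefore lower in cKO, the exon-skipped form by more, and it accounted for 26.2% of the gene's difference in CPM.

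Selenos was divided among 3 transcripts. Selenos-205 differs from Selenos-201 by a splice donor that leaves out the last 3 bases of exon 5 (chr7:66087269-66087271), and Selenos-202 extends exon 1 by 29 bases (chr7:66079790-66079818), which shifts the frame, leaves 64 codons and carries the nonsense-mediated decay label. Both differences are printed in capitals, since they define the 3 forms whose shares are compared.
Selenos-201, bases absent from Selenos-205: ctttgcgaggagGTGgttataaccctc
Selenos-202, bases absent from Selenos-201: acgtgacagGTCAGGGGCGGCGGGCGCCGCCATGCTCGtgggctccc

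Selenos-202 had 278 counts in WT and 169 in cKO, a log2 ratio of -1.08 (interval -1.50 to -0.69). Its share was 15.2% of the gene's counts in WT (13.04 to 17.7) and 8.69% in cKO (7.03 to 10.6), and its fall made up 46.8% of the gene's difference in CPM. Among the 3 transcripts of Selenos with at least 5% of its counts, this one, which does not encode the full protein, had the largest difference. Selenos-203, with a retained intron and few reads, went from 22 counts (WT) to 5 (cKO).

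The coding forms of Selenos were closer between the libraries. Selenos-201 had 660 and 781 counts (log2 ratio -0.12, interval -0.34 to 0.09), and Selenos-205 had 856 and 982 counts (log2 ratio -0.16, interval -0.35 to 0.03). Their shares were 36.1% and 46.9% in WT and 40.2% and 50.5% in cKO, with intervals that overlapped between the libraries. M21 ends the coding sequence of Selenos-205 just before the selenocysteine codon, so only Selenos-201 is annotated as decoding it, although transcripts with the codon's bases in an exon held 98.8% (WT) and 99.7% (cKO) of the gene's counts.

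Shifts of this kind were common in these values. Among 8562 transcripts with at least 5% of a gene's counts, in genes with 2 or more of them and 1625 to 21784 counts, the share was lower in cKO without overlap of intervals for 27.2% and higher for 26.5%. Of the 5 such transcripts of Selenof and Selenos, 2 were lower and 1 was higher (Selenof-201, 85.5% to 88.2%), which is near that background. Shares also rest on the authors' division of reads between transcripts.

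Minor transcripts of Selenop moved unevenly at low counts. Selenop-207, a shorter coding model, had 132 counts in WT and 295 in cKO (log2 ratio 0.80, interval 0.37 to 1.24), and Selenop-204, with a retained intron, had 249 and 336 (0.07, interval -0.27 to 0.42). They are short, so they weigh more in TPM than in counts, where Selenop-201 held 91.9% in WT and 89.5% in cKO. Neither reaches 5% of the gene's counts, and they are named here after their values were seen.

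**Figure D4:**
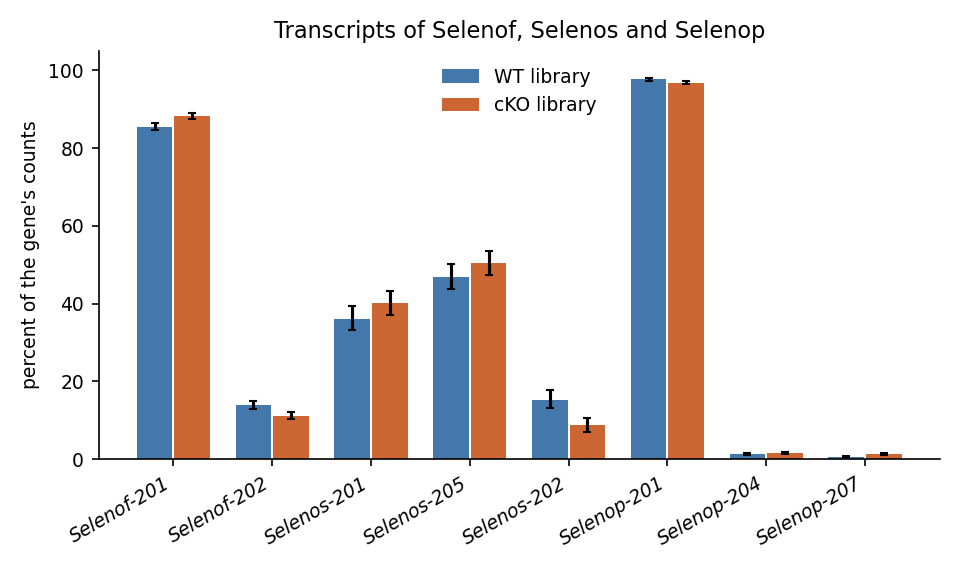
Percent of the gene's counts held by transcripts of Selenof, Selenos and Selenop in the WT and cKO libraries, with 95% Wilson intervals. Selenof-202 falls from 13.96% to 11.2%, Selenos-202 from 15.2% to 8.69% and Selenop-201 from 97.7% to 96.8%.

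The pathways in which the members act were examined in lists of their partners. Glycoprotein folding around UGGT and calnexin, where SELENOF works, gave no gene past 1.2-fold among 11 measured, and a median log2 ratio of 0.03. Calr, Canx and Pdia3, the most abundant of them, had log2 ratios of -0.04, -0.12 and -0.04, and Uggt1 stood at 0.14. Selenof, at -0.29, was below all 11, of which the lowest was Mcfd2 at -0.13. The interval of Mcfd2 (-0.29 to 0.03) overlapped that of Selenof (-0.35 to -0.24).

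Degradation from the ER, the pathway of SELENOS and SELENOK, had 27 measured genes with a median log2 ratio of 0.01. Sel1l, the scaffold of the HRD1 ubiquitin ligase, was the only one past 1.5-fold (51.3 TPM in WT and 84.4 in cKO, log2 ratio 0.73), and Syvn1, which encodes HRD1, passed 1.2-fold (0.45). None was lower at 1.2-fold. Vcp, the ATPase that SELENOS binds, had a log2 ratio of 0.05, Derl1 -0.05 and Derl2 0.11, while Rnf5, a ubiquitin ligase of the ER, had -0.13. Svip (-0.26, interval -0.38 to -0.15), Ubxn8 (-0.24, interval -0.39 to -0.09) and Ubxn6 (-0.16, interval -0.27 to -0.05), which encode cofactors of VCP, had intervals below a ratio of 1, as did Herpud2 (-0.24). Selenos at -0.27 and Selenok at -0.12 thus stood beside genes of this pathway with ratios on both sides of 0.

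The oligosaccharyltransferase, with which SELENOT has been found, had 12 measured genes and a median log2 ratio of -0.05. At 1.2-fold, 2 were lower, Magt1 (-0.44), an oxidoreductase subunit, and Ost4 (-0.29), a small subunit, and 0 were higher. Tusc3, the alternative of Magt1, Ddost and Rpn2 had ratios of 0.03, 0.00 and 0.03.

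ER calcium genes, the setting of SELENON, SELENOM and SELENOK, leaned the other way. Of 14 measured, Ryr2, a ryanodine receptor, was 1.5-fold higher (3300 counts in WT and 7300 in cKO, log2 ratio 0.78), and Itpr1 (0.44), Itpr3 (0.39) and Ryr3 (0.33) passed 1.2-fold. Itpr2, the IP3 receptor of glia, was lower (-0.38). The pump Atp2a2, at 286 TPM in WT and 314 in cKO, had a log2 ratio of 0.10, Orai2 and Stim1 had 0.21 and 0.02, and Zdhhc6, the enzyme that works with SELENOK, had -0.16 (interval -0.32 to -0.01). Neuron markers moved with the higher genes, with all 12 above 0 and a median of 0.18, and their part in these ratios was not tested.

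Redox enzymes of the ER that contain no selenium centred near 0: 21 measured genes had a median log2 ratio of -0.02, with 11 below 0. Tmx3 (-0.32) was the only one lower at 1.2-fold, and 0 were higher. Tmx2, P4hb (protein disulfide isomerase) and Tmx4, the most abundant, had ratios of 0.00, -0.05 and 0.01.

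Genes of the ER stress response, among them chaperones, sensors and transcription factors, had a median log2 ratio of -0.10. Of the 20, 17 were below 0, against 47.7% of all measured genes. None passed 1.5-fold. At 1.2-fold, Ddit3 (-0.36), the transcription factor CHOP, and Sdf2l1 (-0.31), a chaperone cofactor, were lower. Hspa5, the chaperone BiP, had -0.05, Hsp90b1 -0.07 and Atf4 -0.18. Selenos and Selenok are themselves known targets of this response, and the values of both sets are given side by side only.

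**Figure D5:**
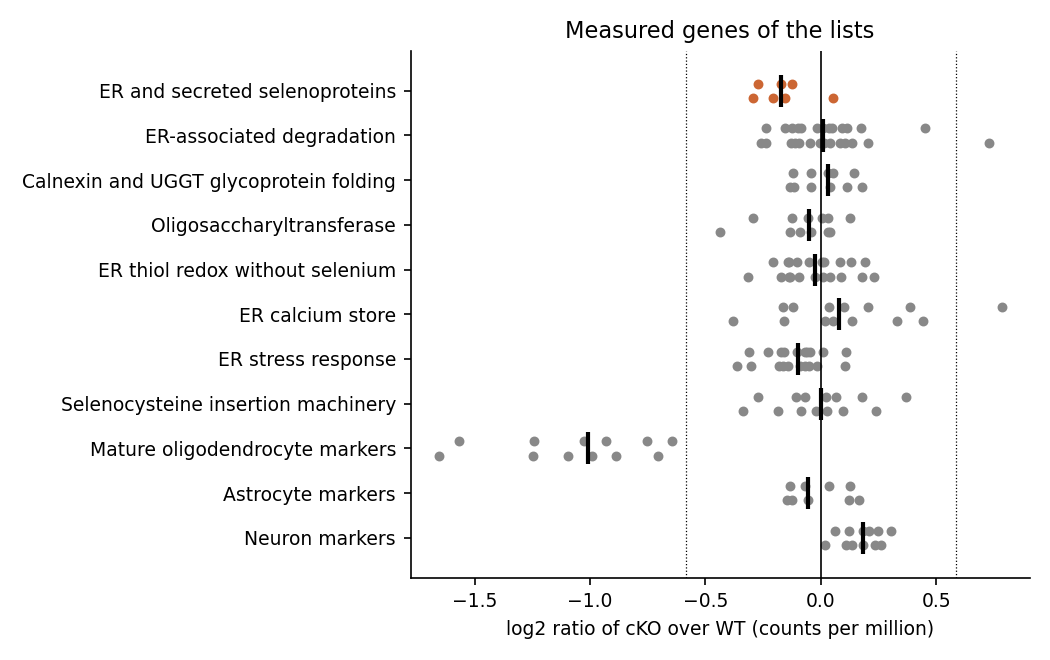
Log2 ratio of cKO over WT in CPM for each measured gene of the members (orange), 7 lists of partner pathways and 3 cell type marker lists (grey), with the median as a black bar and dotted lines at 1.5-fold. The members' median is -0.17, the partner lists' medians run from -0.10 to 0.08, and the mature oligodendrocyte markers have a median of -1.01.

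On the uptake side, Lrp8, the neuronal receptor for SELENOP, had 5474 counts in WT and 7216 in cKO (log2 ratio 0.04, interval -0.04 to 0.11). Lrp2, the receptor known from kidney, was low, at 0.51 TPM in WT and 0.57 in cKO. Lrp1, a broad endocytic receptor, had a log2 ratio of 0.29 in CPM, but 87.4 and 151 TPM, a larger difference on that scale. Scly, which releases selenium from selenocysteine, passed 1.2-fold (log2 ratio 0.30, interval 0.02 to 0.58), and Sephs1 had 0.03. The list had 7 measured genes, and 1 of them, lower at 1.5-fold, is not reported here by name or value. The carrier Selenop was thus 1.13-fold lower in cKO, beyond counting error (interval -0.21 to -0.13), while its receptor Lrp8 was within counting error of equal.

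Among 14 genes of selenocysteine insertion the median log2 ratio was 0.00. Secisbp2, the main SECIS-binding protein, had 15.6 CPM in WT and 16.4 in cKO (log2 ratio 0.07, interval -0.14 to 0.27), which at this depth is not distinguishable from equal. Eefsec, the elongation factor for selenocysteine, was higher at 1.2-fold (0.37), and Secisbp2l (-0.34) and Trnau1ap (-0.27), which associates with the selenocysteine tRNA, were lower. Rpl30 and Ncl, abundant SECIS-binding proteins, had -0.07 and 0.03.

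The members' ratios can be set beside the marker lists of the cells that make up the cord. Mature oligodendrocyte markers had a median log2 ratio of -1.01 (range -1.66 to -0.65, none at 0 counts), and precursor markers -0.15. Astrocyte, microglia, and endothelium and pericyte markers had medians of -0.05, -0.05 and 0.08. Markers of meninges and fibroblasts had -0.25 (8 of 8 below 0, 1802 and 1490 TPM summed), Schwann cells -0.24, ependyma 0.04, and red blood cells 0.55. Only 3 of 8 skeletal muscle markers were measured, with a median of 0.20. The part of these shifts in the members' ratios was not tested, and no value here assigns a member to a cell type.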

How the data were processed

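Spinal cord RNA of 1 WT and 1 cKO library was compared. The authors deposited estimated counts, TPM and FPKM per gene and transcript, per the file headers. CASAVA, Bowtie2 2.3.2 and GRCm38.p6 are named in the submitters' processing notes. Not given in the sources used here are the counting tool, annotation release and strandedness. Deposited counts equalled a constant times FPKM times length, rounded up, for 99.6% (WT) and 99.5% (cKO) of low transcripts. That product lay within 0.1 of an even number for 28.3% and 26.4% of low single-transcript genes, and of an odd number for 9.71% and 9.53%, so intervals took 2 counts as 1 fragment, as the design allowed.

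CPM used TMM-scaled library sizes (edgeR 4.0.16, R 4.3.3; factors 1.0006 and 0.9994). Ratios have exact Clopper-Pearson 95% intervals (scipy 1.17.1, Python 3.11.15, numpy 2.4.6, pandas 2.3.3), checked on simulated data, and shares Wilson intervals. PCR copies are not independent molecules, so both cover only counting error. Hairpins were folded with ViennaRNA 2.7.2, and figures drawn with matplotlib 3.10.9. Sequences and gene models are GENCODE M21 on GRCm38. Selenok-201 ends earlier in the files than in M21.

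The members and 21 gene lists (the members, 9 context lists and 11 cell type lists) were chosen with earlier results of these data known. Named were all members, their transcripts of at least 5%, Secisbp2l, measured selenoproteins, and from each context list up to 4 genes past 1.5-fold and 3 of highest TPM; others, among them the few past 1.2-fold and partners such as Derl1 or Zdhhc6, were chosen after their values were seen. Not every gene taken by this rule is reported here. Alternatives were upper quartile, RLE and total-count scaling, TMM over autosomes, the authors' TPM and FPKM with pseudocounts of 0.1 or 1, other filters, coding transcripts only, and 1 count as 1 read.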

Additional observations from a re-analysis of the deposited data

How the results depend on the processing

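No member changed direction under any alternative that was run. With the authors' TPM (pseudocount 0.1 or 1), the log2 ratio of Selenop was -0.11 and the members' median -0.12, 2 ER calcium genes were 1.5-fold higher, and 1 gene (Lrp1) of the SELENOP uptake and selenium list was, where 1 gene was lower under every setting. With upper quartile scaling, 1 member was lower at 1.2-fold, without Selenos (-0.25); the cause is that scaling, which raised every ratio slightly. On coding transcripts only, Selenos had a log2 ratio of -0.15. On transcript TPM, the share with the annotated selenocysteine codon was 99.1% in both libraries for Selenof, 98.6% (WT) and 98.7% (cKO) for Selenom, 99.6% and 99.5% for Selenot, 95.2% and 94.4% for Selenop, and in cKO 99.2% for Selenok and 97.9% for Selenon, because TPM weighs short transcripts more. For the same reason the share of Selenof-202 was 17.2% and 13.9%, and that of Selenos-202 18.9% and 11.1%, both still lower in cKO. Other ratios and counts stayed within counting error or 1.5 times. Summing with same-strand genes was not run, since no such gene shares exons with a member. No paired analysis was possible because each group has 1 library and no result comes from a test. Depth limits Selenon and Selenos most, and differences between animals are not measured.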
